A study of Mus musculus with 2 samples.

Results

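The actin filament machinery of CD45+ brain cells was followed through 10 genes, taken by symbol from the 32285 genes counted in each mouse, and all 10 were found. They encode the cytoplasmic actins (Actb, Actg1), actin monomer binders (Pfn1, Tmsb4x), the filament-severing protein cofilin and a phosphatase that activates it (Cfl1, Ssh2), a coronin (Coro1a), and proteins that bundle or cap filaments or tie them to the membrane (Fscn1, Eps8, Marcks). Single-cell RNA of 8 mice aged 12 weeks was compared, on the C57BL/6J background given for the floxed line. All 8 mice carried floxed Arpc4 (Arpc4 fl/fl): 4 Cre-negative littermates were the controls, and 4 mice with the Tg(Cx3cr1-Cre) transgene formed the Arpc4ΔCx3cr1 group, called KO here. Arpc4 encodes a subunit of the Arp2/3 complex, and the Cx3cr1 promoter also drives Cre in brain myeloid cells other than microglia. Sorted CD45+ cells of each mouse were marked with a tag, pooled and run as 1 library read from the 3′ ends of transcripts, so the mice are the replicates and share 1 preparation.

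Actin filaments grow by adding monomers at their ends and shrink by losing them, and cells steer this turnover with proteins that hold monomers in reserve, cut or cap filaments, or tie them into bundles. Profilin feeds monomers to growing ends, thymosin β4 keeps a store of them, cofilin severs old filaments once a Slingshot phosphatase has removed its inhibitory phosphate, and the Arp2/3 complex starts new filaments as branches on existing ones. Microglia depend on this machinery for the fine processes with which they survey the brain, and fascin, which packs filaments into tight parallel bundles, is a typical component of finger-like protrusions.

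After the filters, 19858 cells remained, 9443 from control and 10415 from KO mice, and 0 cell barcodes were shared between mice. Each mouse gave 5251527 to 12878691 unique molecular identifiers (UMIs, each standing for 1 captured transcript). Clusters were named from marker genes, and 17018 cells were microglia-like (7784 control, 9234 KO), with summed counts of 4199828 to 11698188 UMIs per mouse and medians of 3834 UMIs per control cell and 4283 per KO cell. The 14 microglia markers, of which C1qa was the most abundant, summed to 34317 to 34919 CPM (counts scaled to 1e+06 UMIs in all) in these sums of control mice and 21533 to 24453 CPM in those of KO mice.

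KO-1 stood apart from the other mice. In its microglia-like cells, Xist, the RNA of the inactive X chromosome, reached 1386 CPM, against 3.67 to 13.3 CPM in the other 7 mice. The study gives its control mice as male and its KO mice as male but for a single female, left out of its own downstream work. It does not say which mouse that was, and by Xist KO-1 matches it. Fits that include KO-1 thus hold a female in the KO group alone. KO-1 was kept here, and the results on the 10 genes are also given without it.

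Arpc4 (ENSMUSG00000079426, chromosome 6, 113378115 to 113390448, plus strand; all gene positions are of build GRCm38, or mm10) served as the check of the genotypes. Its level in microglia-like cells was 242, 225, 232 and 232 CPM in Ctrl-1 to Ctrl-4 and 147, 145, 136 and 132 CPM in KO-1 to KO-4. All KO mice lay below all control mice, and the log2 fold change, KO over control, was -0.63 (SE 0.0536, adjusted p = 4.95e-06). Fold changes and adjusted p come from edgeR on the summed counts of 4 against 4 mice, scaled by its TMM factors and adjusted over all genes tested. Each SE was derived from that test, as the size of the log2 fold change over the square root of its F statistic. Which exons are deleted is not given in the sources used, so 3′ counts may lie outside the deleted part and then check nothing, and exons of Ttll3 overlap Arpc4 on the same strand.

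In microglia-like cells, 8 of the 10 genes fell in KO mice and 0 rose at an adjusted p under 0.05. Of all 12728 genes tested in these cells 46.0% passed, 23.1% lower and 22.9% higher. The 10 genes had a median log2 fold change of -0.58, against -0.01 over all genes tested. They were chosen with earlier results of these data known. Of them, 4 are among the actin genes that the study named from differences between the same genotypes. Setting the 10 beside all genes is thus a description and no test. The fall included both actins, Pfn1, Cfl1, Coro1a, Fscn1, Eps8 and Marcks, while Tmsb4x and Ssh2 did not pass. Control and KO values did not overlap for 9 of the 10, all lower, the exception being Ssh2. The same held for 47.8% of 12717 tested genes with a unique symbol, 31.3% lower and 16.5% higher. Together the 10 genes took 1.90 to 1.99% of the UMIs of control microglia-like cells and 1.45 to 1.52% of those of KO cells.

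The same 8 genes passed without KO-1, and 6 of the 10 log2 fold changes were then further from 0. Scaling by total counts in place of TMM shifted the median log2 fold change of all genes by -0.11, changed the split of all genes passing from 2945 lower and 2911 higher to 4264 lower and 2246 higher, and added Tmsb4x to the 10 genes' falls. None of the 10 changed its sign in these cells under any alternative run. In the same sums, the 101 ribosomal protein genes took 6.58 to 6.95% of UMIs in control and 11.3 to 12.5% in KO mice, and the 13 mitochondrial genes 0.542 to 0.595% and 1.075 to 1.28%. Their part in the CPM of the 10 genes was not tested.

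**Figure D1:**
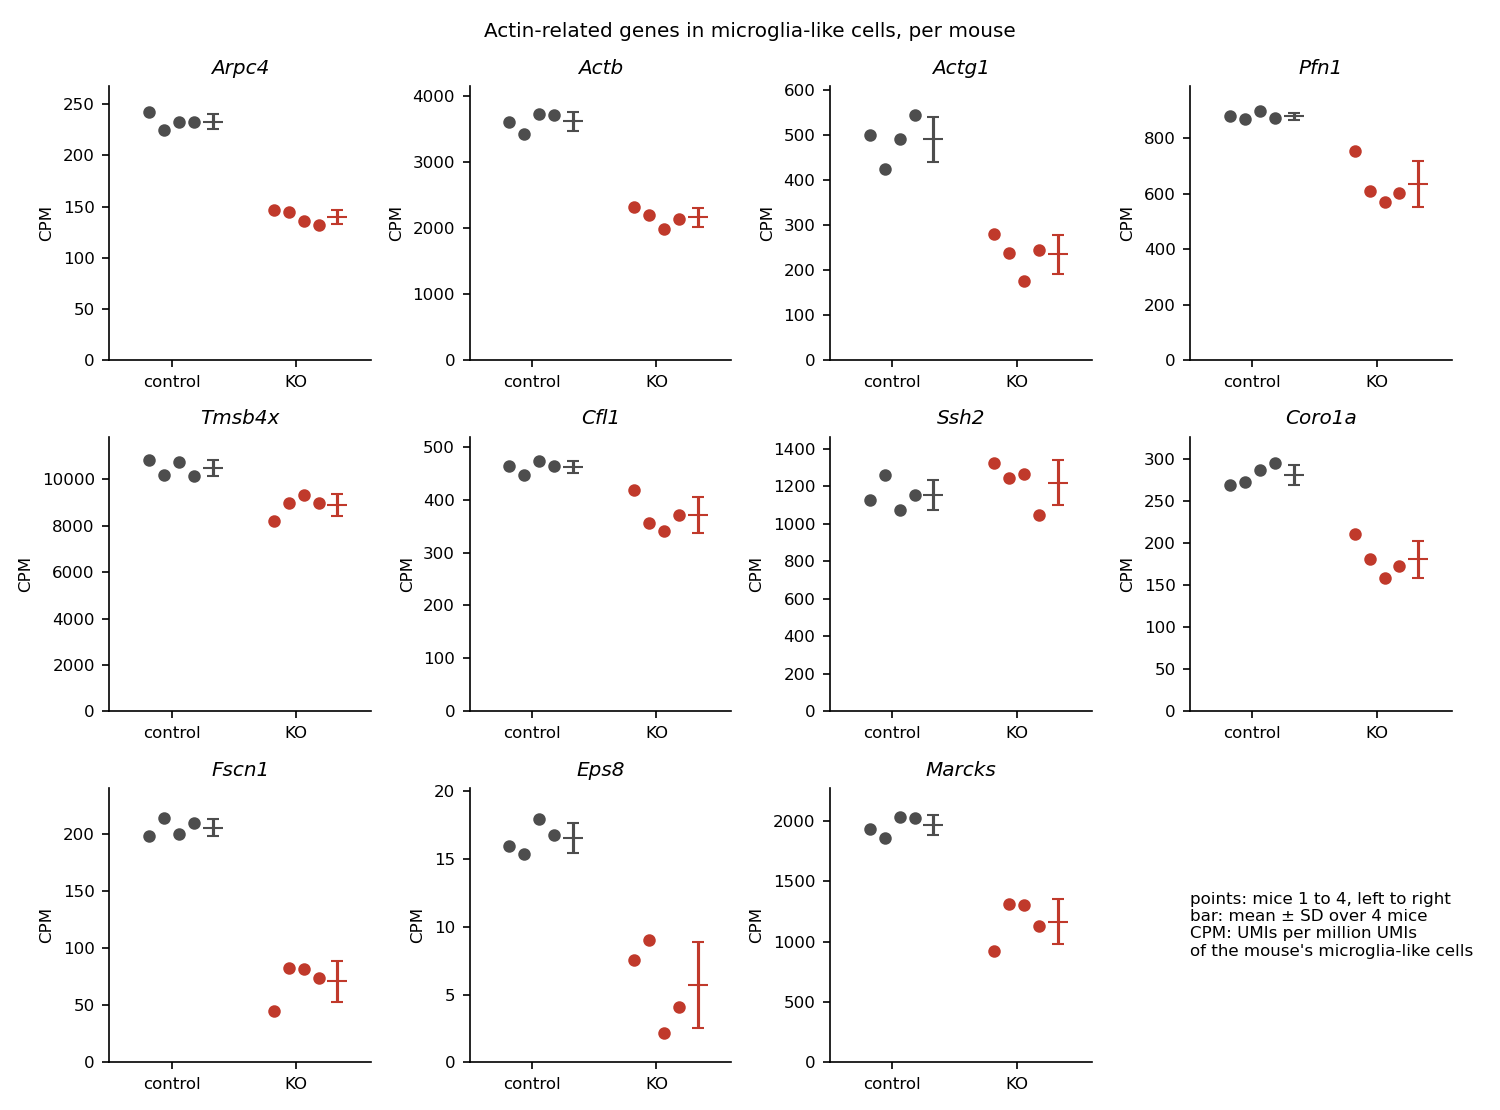
Level in microglia-like cells, in CPM on axes that start at 0, of the 10 genes and Arpc4 in each of 4 control and 4 KO mice (points), with the mean and its SD (lines). The 4 KO mice lie below the 4 control mice in every panel but that of Ssh2, and for Fscn1 the KO mice reach 45.1 to 82.8 CPM against 199 to 214 CPM.

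Actb (ENSMUSG00000029580, chromosome 5, 142903115 to 142906754, minus strand) encodes β-actin, the main cytoplasmic actin of most cells. Microglia-like cells of Ctrl-1 to Ctrl-4 had 3603, 3422, 3728 and 3712 CPM, and those of KO-1 to KO-4 had 2324, 2204, 1993 and 2137 CPM. Every KO mouse lay well below every control mouse, with similar spreads in both groups (SD 141 CPM around a control mean of 3616, and 138 CPM around a KO mean of 2164). KO over control, this was a log2 fold change of -0.64 (SE 0.0604, adjusted p = 1.08e-05), and -0.67 without KO-1.

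Actg1 (ENSMUSG00000062825, chromosome 11, 120345690 to 120348542, minus strand) encodes γ-actin, the other cytoplasmic isoform. It measured 500.02, 426, 492 and 546 CPM in the controls and 280.1, 239, 176.5 and 246 CPM in KO mice. The groups were far apart, with KO-3 at the bottom and Ctrl-4 at the top. The log2 fold change of -0.96 (SE 0.124, adjusted p = 0.000103) became -1.05 without KO-1.

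Both actins summed to 4103, 3848, 4220 and 4258 CPM in the controls and to 2604, 2443, 2170 and 2382.5 CPM in KO mice. Within that sum, Actg1 made up 12.2, 11.1, 11.7 and 12.8% in the controls and 10.8, 9.80, 8.13 and 10.3% in KO mice. The γ-actin part was thus lower in each KO mouse than in each control mouse, KO-1 lying closest to the controls, and this difference was not tested. Both genes encode nearly identical proteins and have many pseudogenes, so the split between them may be less certain than their sum. This was not tested. Exons of Gm23419 and Mir6935 overlap Actg1.

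Promoter windows from 250 bases before to 50 bases after the gene start were taken from RefSeq (build GRCm38.p6), which held 9 windows of 7 of the 10 genes; Actb, Eps8 and Marcks were not among them. Each was searched on both strands for the CArG box, the sequence bound by the serum response factor Srf, which many actin genes carry; it reads alike on both strands. Among the 9 windows, that of Actg1 alone held it, starting at -90 from the gene start, and of all 32851 windows of this length 535, or 1.63%, held it. Shown are the windows of Actg1, of Fscn1, a gene with one of the largest falls, and of Ssh2, one of the genes that did not pass, at chr11:120348446-120348745 (minus strand), chr5:142960105-142960404 (plus strand) and chr11:77216175-77216474 (plus strand, the first of its windows). Capitals mark the box, and a match is a description of letters alone.
Actg1: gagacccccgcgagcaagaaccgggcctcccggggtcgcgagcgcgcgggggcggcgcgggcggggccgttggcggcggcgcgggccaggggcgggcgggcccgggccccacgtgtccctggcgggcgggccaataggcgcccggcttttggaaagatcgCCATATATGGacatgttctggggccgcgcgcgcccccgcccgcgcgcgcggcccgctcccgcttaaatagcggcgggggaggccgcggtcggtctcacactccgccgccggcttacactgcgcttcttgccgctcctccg
Fscn1: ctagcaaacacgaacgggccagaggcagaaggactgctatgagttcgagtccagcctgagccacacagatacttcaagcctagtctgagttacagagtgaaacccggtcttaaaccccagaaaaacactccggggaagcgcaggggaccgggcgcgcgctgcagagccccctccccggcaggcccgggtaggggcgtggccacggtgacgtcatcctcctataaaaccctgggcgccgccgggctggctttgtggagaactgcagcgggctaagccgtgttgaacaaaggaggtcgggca
Ssh2: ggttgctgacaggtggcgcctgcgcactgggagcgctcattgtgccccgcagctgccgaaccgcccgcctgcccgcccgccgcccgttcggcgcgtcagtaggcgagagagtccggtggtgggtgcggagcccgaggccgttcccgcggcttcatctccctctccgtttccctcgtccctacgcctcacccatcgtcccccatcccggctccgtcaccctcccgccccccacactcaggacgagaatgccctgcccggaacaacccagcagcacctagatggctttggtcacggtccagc

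The transcripts of the monomer binders Pfn1 and Tmsb4x had log2 fold changes smaller in size than those of Actb and Actg1. This comparison was not tested, and it does not extend to every monomer binder listed below. Pfn1 (ENSMUSG00000018293, chromosome 11, 70651850 to 70654644, minus strand) encodes profilin. It stood at 877, 867, 897 and 871 CPM in the controls and at 755, 610, 569 and 603 CPM in KO mice. The control mice were almost alike, and KO-1 was the highest of the KO mice but still below all of them. Pfn1 thus fell, with a log2 fold change of -0.36 (SE 0.0818, adjusted p = 0.00389), and -0.46 without KO-1.

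Tmsb4x (ENSMUSG00000049775, chromosome X, 167207093 to 167209315, minus strand), which encodes thymosin β4, had 10804, 10187, 10717 and 10141 CPM in the controls and 8202, 8994, 9304 and 8982 CPM in KO mice. The groups did not overlap, yet the log2 fold change of -0.13 (SE 0.0629) did not pass after TMM scaling (adjusted p = 0.107). With total count scaling it was -0.24 (adjusted p = 0.00481; range 0.00481 to 0.231 over its 17 alternatives), and without KO-1 it was -0.09 (adjusted p = 0.149).

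Relative to actin, the binders' transcripts were more abundant in KO mice. For each actin UMI (Actb and Actg1 together), control mice had 0.204 to 0.225 Pfn1 UMIs and KO mice 0.250 to 0.290, and Tmsb4x went from 2.38 to 2.65 in control mice to 3.15 to 4.29 in KO mice. These ratios do not overlap between the groups and were not tested.

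Of the 5 other monomer-binding genes, 2 fell, 1 rose and 2 did not pass. The counts of this list and those after it stand beside 23.1% lower and 22.9% higher among all genes tested. Tmsb10, the closest relative of Tmsb4x, rose from a mean of 116 CPM to 261 CPM (log2 fold change 1.28, adjusted p = 3.74e-06), with all 4 KO mice above all control mice. Twf2, a twinfilin that binds monomers and filament ends, fell from 152 to 100.3 CPM (log2 fold change -0.49, adjusted p = 0.000169). Cap1, which helps recharge monomers with ATP, fell from 214 to 161 CPM (-0.31, adjusted p = 0.0108).

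Cfl1 (ENSMUSG00000056201, chromosome 19, 5490455 to 5495201, plus strand) encodes the non-muscle cofilin. Its levels were 464, 446, 473 and 463 CPM in the controls and 418, 355, 340.5 and 371 CPM in KO mice. All KO mice lay below the controls, KO-1 the least far. The log2 fold change was small, -0.21 (SE 0.0671, adjusted p = 0.0252), and it no longer passed when certain single mice were left out: the adjusted p was 0.0634 without KO-2, 0.0624 without KO-3, 0.0534 without KO-4, 0.0599 without Ctrl-1, 0.0664 without Ctrl-3 and 0.050045 without Ctrl-4, just above the threshold. Over its 17 alternatives the adjusted p ran from 0.000458 to 0.0664, and without KO-1 the log2 fold change was -0.27. Cofilin UMIs for each actin UMI were 0.109 to 0.116 in control and 0.145 to 0.160 in KO mice, not tested. Exons of Snx32 lie opposite Cfl1.

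Ssh2 (ENSMUSG00000037926, chromosome 11, 77216287 to 77460220, plus strand) encodes a Slingshot phosphatase that removes the inhibitory phosphate of cofilin. It measured 1127, 1263, 1074 and 1155 CPM in the controls and 1323, 1243, 1268.5 and 1047 CPM in KO mice. The groups overlapped: KO-1 and KO-3 exceeded all controls, KO-4 was below all of them. The log2 fold change of 0.18 (SE 0.0785) did not pass (adjusted p = 0.0767), nor did the 0.15 without KO-1 (adjusted p = 0.100). It passed without KO-4 (0.25, adjusted p = 0.0149) and among cells with 3000 to 5000 UMIs (0.22, adjusted p = 0.0446), an alternative chosen after seeing the data; the range over its 17 alternatives was 0.0149 to 0.426.

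Among the 9 other genes tested of the cofilin cycle, 1 fell and 2 rose. The fall was in Wdr1, the cofactor that speeds cofilin's disassembly of filaments, from 67.4 to 43.9 CPM (log2 fold change -0.51, adjusted p = 3.05e-05). The related phosphatase Ssh1 rose from 20.4 to 24.2 CPM (0.36, adjusted p = 0.00360), and so did Tesk1, a kinase that inhibits cofilin (0.31, adjusted p = 0.0123). Dstn, the cofilin relative destrin, had a log2 fold change of 0.08 (adjusted p = 0.216) and the cofilin kinase Limk1 one of 0.18 (adjusted p = 0.0650).

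Coro1a (ENSMUSG00000030707, chromosome 7, 126699773 to 126707787, minus strand) encodes the leukocyte coronin, which binds filaments and interacts with the Arp2/3 complex. It stood at 269, 273, 286 and 295 CPM in the controls and at 211, 180.4, 158 and 173 CPM in KO mice. Again KO-1 was the nearest to the controls and no KO mouse reached them. Its log2 fold change was -0.53 (SE 0.0801, adjusted p = 0.000289), and -0.61 without KO-1. Exons of Bola2 lie opposite Coro1a.

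Other coronins moved the opposite way, apart from Coro1b (log2 fold change -0.02, adjusted p = 0.924). Coro1c rose from 33.7 to 58.1 CPM (log2 fold change 0.89, adjusted p = 1.45e-05), Coro7 had a rise of 0.56 (adjusted p = 0.00122) and Coro2a one of 0.41 (adjusted p = 0.0290). Of the 9 genes tested in this list of coronins and branch regulators, 3 fell and 4 rose. The falls were in Dbnl (-0.43), Gmfb (-0.43), whose product takes branches apart, and Hcls1 (-0.16), the cortactin relative of blood cells.

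Fscn1 (ENSMUSG00000029581, chromosome 5, 142960343 to 142973185, plus strand) encodes fascin. Control mice had 199, 214, 200.3 and 209 CPM and KO mice 45.1, 82.8, 81.5 and 74.2 CPM. The lowest control mouse was far above the highest KO mouse, and KO-1 was the lowest of all. The log2 fold change was -1.43 (SE 0.153, adjusted p = 2.45e-05), and -1.26 without KO-1.

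Eps8 (ENSMUSG00000015766, chromosome 6, 137477245 to 137654876, minus strand) encodes a protein that caps and bundles filaments. It was scarce, with 16.0, 15.4, 17.9 and 16.8 CPM in the controls and 7.57, 8.99, 2.15 and 4.10 CPM in KO mice, resting on 25 to 161 UMIs per mouse. The groups did not overlap, and KO-3 and KO-4 were lower than KO-1 and KO-2. Its log2 fold change was -1.45 (SE 0.313, adjusted p = 0.00313), and -1.63 without KO-1.

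Eps8 was higher in macrophage-like cells of the brain's borders (CAM-like cells, for CNS-associated macrophages) than in microglia-like cells, and the markers of those cells moved with it. The 10 CAM markers, most abundant Stab1, summed to 185, 181, 171 and 185 CPM in control microglia-like sums and to 108, 157, 67.2 and 98.1 CPM in KO sums, against a mean of 8192 CPM in the CAM-like cells; 0 of the 10 were at 0 in 7 mice and 1 in KO-3. As with Eps8, KO-2 was the highest and KO-3 the lowest of the KO mice. Their part in the Eps8 difference was not tested.

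Marcks (ENSMUSG00000069662, chromosome 10, 37133375 to 37138920, minus strand) encodes a protein that links filaments to the plasma membrane. Its levels were 1934, 1858, 2035 and 2026 CPM in the controls and 921, 1310, 1301 and 1133 CPM in KO mice. The groups were well separated, with KO-1 the lowest. Marcks had a log2 fold change of -0.65 (SE 0.100, adjusted p = 0.000351), and -0.55 without KO-1.

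The remaining bundling and crosslinking genes did not share one direction: of 12 tested, 2 fell, 3 rose and 7 did not pass. Actn1, an α-actinin that crosslinks filaments, fell from 14.4 to 3.04 CPM (log2 fold change -2.14, adjusted p = 8.36e-07), and the calponin Cnn2 from 10.4 to 3.86 CPM (-1.33, adjusted p = 0.000494). Marcksl1, the relative of Marcks, rose from 13.1 to 18.6 CPM (0.62, adjusted p = 0.0255), and Plek had a smaller rise (0.29). The leukocyte bundler Lcp1 had a log2 fold change of 0.04 (adjusted p = 0.514), and Aif1, which encodes the microglia marker IBA1, one of -0.11 (adjusted p = 0.201).

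Capping and severing genes beside Eps8 split evenly, with 4 falls and 4 rises among 12 tested. Gsn, which encodes gelsolin, rose from 2.32 to 13.5 CPM (log2 fold change 2.61, adjusted p = 9.65e-07), the gelsolin relative Capg from 25.6 to 77.7 CPM (1.70, adjusted p = 4.77e-05), and Carmil1, a regulator of capping protein, had a rise of 1.45. The capping protein subunits Capza2 (from 763 to 539 CPM, -0.40) and Capzb (-0.35) fell, as did Add3 (-0.49).

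Tropomyosins, which coat filaments, gave 1 fall and 1 rise among 4: Tpm3 fell from 496 to 308 CPM (-0.58) and Tpm4 rose from 22.5 to 49.4 CPM (1.22). Of 2 Ena/VASP genes tested, whose products speed filament growth, Vasp fell (-0.37). Of 5 membrane linkers, Rdx fell (-0.42) and 3 rose, Ezr from 2.48 to 6.66 CPM (1.498), Sptbn1 (0.87) and Sptan1 (0.61). Of 7 genes tested around Srf and its actin-sensing coactivators, Zyx (-0.73) and Tln1 (-0.33) fell and the coactivator Mrtfa rose from 89.8 to 101 CPM (0.27, adjusted p = 0.00249); Srf itself, at 2.65 to 3.49 CPM in the group means, had a log2 fold change of -0.29 (adjusted p = 0.220).

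Over all 78 listed regulators outside the 10 genes, 65 were tested, 17 fell (26.2%), 19 rose (29.2%) and 29 did not pass, with a median log2 fold change of -0.02. Those shares are near the 23.1% and 22.9% of all genes tested. Without KO-1, 22 fell (33.3%) and 20 rose (30.3%) of 66 tested, against 25.1% and 24.4% of all genes in that fit, 49.6% together. With total count scaling 26 fell (40.0%) and 14 rose (21.5%) of 65, against 33.5% and 17.6% of all genes, 51.1% together. A list of 12 actin genes that the study named from its separate bulk libraries of sorted microglia gave 11 falls and 0 rises here. The remaining gene, Ssh2, did not pass and had a log2 fold change above 0 (0.18), while the study calls its list mostly downregulated. The list shares 4 genes with the 10 (Ssh2, Eps8, Marcks and Fscn1), and it was chosen from differences between the same genotypes. The plot of fold changes by list shows the 10 genes beside these regulators.

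**Figure D2:**
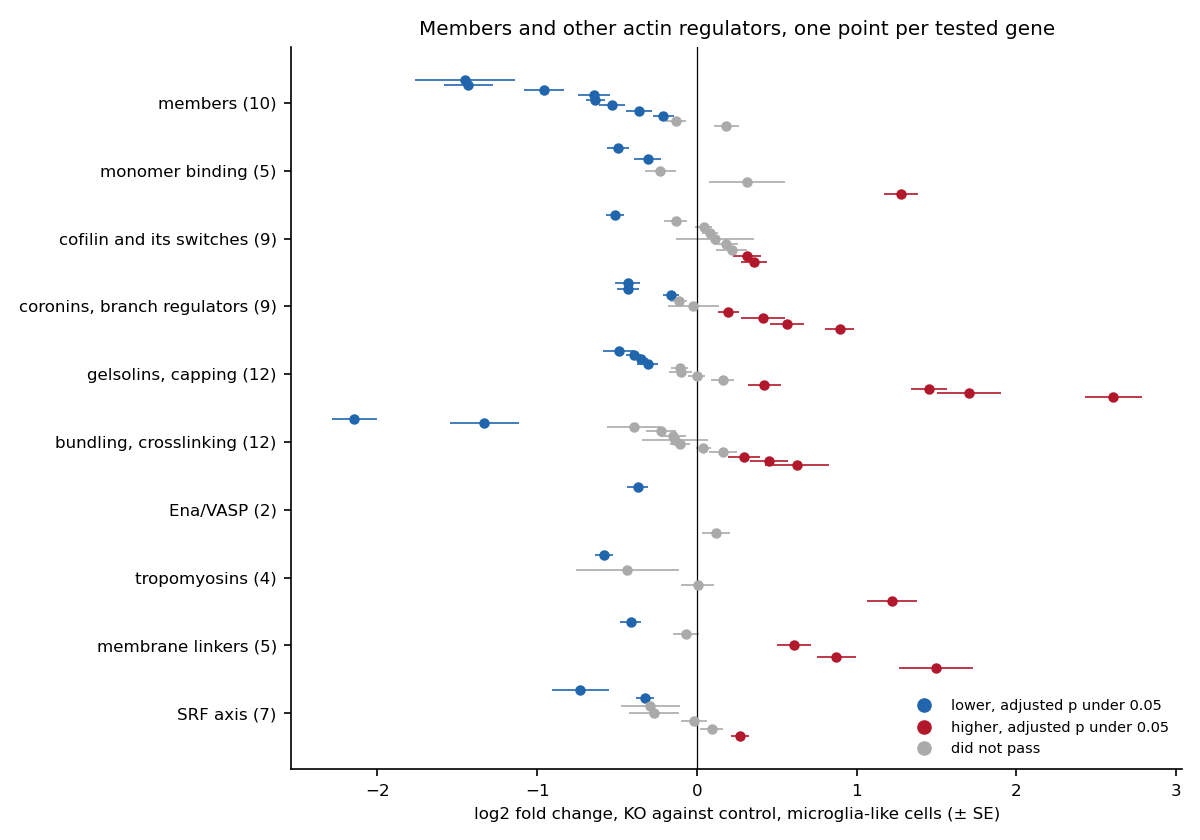
Log2 fold change of KO over control in microglia-like cells (points) with its SE (lines) for the 10 genes and the listed actin regulators, arranged by list, blue where they fell, red where they rose and grey where they did not pass an adjusted p of 0.05. The 10 genes run from -1.45 (Eps8) to 0.18 (Ssh2), while other regulators run from -2.14 (Actn1) to 2.61 (Gsn).

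Of 14 genes often induced while tissue is dissociated, 13 were tested, 2 fell and 7 rose. They summed to 644, 672, 689 and 741 CPM in control microglia-like cells and to 868, 594, 499.7 and 666 CPM in KO cells, Jund being the most abundant, or Junb in KO-1. KO-1 alone was above the control mice. Their part in the 10 genes' levels was not tested.

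B cell markers (9, most abundant Ighm) summed to 235 to 251 CPM in control and 79.7 to 145 CPM in KO microglia-like sums, T cell markers (10, Il7r) to 67.2 to 79.3 and 11.03 to 44.4 CPM, NK cell markers (9) to 9.02 to 12.4 and 3.55 to 5.89 CPM, and granulocyte markers (10, Csf3r) to 402 to 421 and 435 to 618 CPM. In each mouse 1 to 4 of the B cell markers, 0 to 4 of the T cell markers, 3 to 5 of the NK cell markers and 0 to 2 of the granulocyte markers were at 0. The actins, Pfn1, Tmsb4x, Cfl1 and Coro1a were higher in T cell-like and NK-like cells than in KO microglia-like cells. The part of such RNA in the falls was not tested.

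The share of microglia-like cells with at least 1 UMI of a gene was counted after every cell was thinned to 2000 UMIs, which left out 289 control and 329 KO cells below that depth. For Fscn1 it was 32.2, 34.4, 32.7 and 34.1% in the controls and 7.63, 14.7, 14.2 and 13.1% in KO mice. The groups did not overlap, KO-1 having the lowest share. The two-sided exact permutation test gave p = 0.0286, the smallest that 4 against 4 mice allow. T cell-like cells, taken as a type that should lack fascin, had 0.781% at this depth, with a median of 3066 UMIs before thinning and 1 Fscn1 UMI in all, in KO-2. Every mouse had a larger share of microglia-like cells than that.

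At the same depth Actg1 was seen in a mean of 60.1% of control and 33.8% of KO cells, Coro1a in 42.9 and 29.7%, Cfl1 in 59.1 and 49.7%, Pfn1 in 80.5 and 68.7%, Marcks in 96.8 and 86.1%, and Actb in 99.5 and 95.5%. Eps8 was seen in 3.01 and 1.11%, against 0.605% in T cell-like cells, which held 2 of its UMIs; KO-3 (0.455%) was below that background and KO-4 (0.745%) close to it. For these and Fscn1, all KO mice were below all control mice, each at that smallest exact p of 0.0286. Tmsb4x also separated the groups, but its shares were saturated (99.994 and 99.966%), so it says little. With it the count was 9 of 10, while over all 12717 genes 47.2% separated the groups in this way, 30.8% lower and 16.3% higher. Without any 1 of the control mice 6 of 10 passed, as Pfn1, Tmsb4x and Cfl1 then had an exact permutation p of 0.0571, although their groups did not overlap. The share of all genes was not counted with a mouse left out. Ssh2 was seen in 81.5 and 81.3% (exact permutation p = 0.943). Without thinning, Fscn1 was seen in 53.3% of control and 24.97% of KO cells, and 7 of the 10 genes were lower in all KO mice at an exact p of 0.0286, where 39.9% of all 12717 genes separated the groups, 16.6% lower and 23.3% higher.

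Microglia-like cells formed 12 clusters, computed with the 10 genes left out of the variable genes. Control and KO cells hardly shared any: 4 clusters were mostly control (1.65 to 3.80% KO cells) and 8 mostly KO (85.6 to 99.9%). Only 385 of the control cells fell in KO clusters, and 158 of the KO cells in control clusters. Cluster 5, led by Xist, Fn1 and Tsix, drew 96.2% of its cells from KO-1, and cluster 11, led by Arhgap15, Negr1 and Ccr1, drew 66.2% from KO-2. Levels by cluster are a description without a test, since the cells of a mouse share their source. In the next paragraph they pool both genotypes, whose shares differ between clusters.

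Actb was highest in cluster 7, a control cluster of low depth led by Crybb1, Ecscr and Ltc4s (6199 CPM, median 2446 UMIs), and lowest in cluster 1, a KO cluster led by Tafa1, Ctnna3 and Grik2 (1701 CPM, median 5439 UMIs). Actg1 had the same extremes, 873 and 148 CPM, and for both genes they held within each genotype. Fscn1 and Marcks were also highest in cluster 7 (297 and 2748 CPM), and lowest in cluster 6, the KO cluster led by Ms4a7, H2-Aa and H2-Eb1 (31.5 and 853 CPM). Within KO cells, however, Fscn1 was highest in cluster 0 (183 CPM) and Marcks lowest in cluster 8 (829 CPM). Within control cells Fscn1 was lowest in cluster 4 (90.1 CPM, 14 UMIs). In these pooled values Ssh2 and Eps8 were both highest in cluster 11 (1637 and 21.8 CPM). They were lowest in cluster 10, led by Cst7, Spp1 and Apoe (323 and 1.39 CPM), the last value resting on 2 Eps8 UMIs. Within genotypes, among clusters with at least 20 cells, the order differed. Ssh2 was highest in cluster 1 in control cells (1477 CPM) and in cluster 0 in KO cells (2035 CPM). In control cells it was lowest in cluster 7 (419 CPM), in KO cells in cluster 10 (315 CPM). Eps8 in control cells was highest in cluster 6 (92.5 CPM, 16 UMIs).

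Within clusters that held at least 20 cells of each genotype, 11 in number, Actb, Actg1, Pfn1, Tmsb4x and Fscn1 were lower in the KO cells of all 11. Cfl1 and Marcks were lower in 10, Coro1a and Eps8 in 9, and Ssh2 in 2, being higher in the other 9. For Eps8 the directions rest on few UMIs, with at most 5 in a genotype in 8 of the 11 clusters, and 0 in some. All these directions are of CPM scaled by total counts, which shifted the median log2 fold change of all genes by -0.11 in the sums. Tmsb4x did not pass in the sums after TMM scaling, and the share of all genes was not counted by cluster. In cluster 8, led by the chemokine genes Ccl4 and Ccl3, Actb stood at 4243 CPM in 101 control cells and at 2448 CPM in 602 KO cells. In cluster 9, led by the interferon-response genes Cxcl10, Ifit3 and Rsad2, it stood at 4318 CPM in 45 control cells and at 2387 CPM in 541 KO cells.

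**Figure D3:**
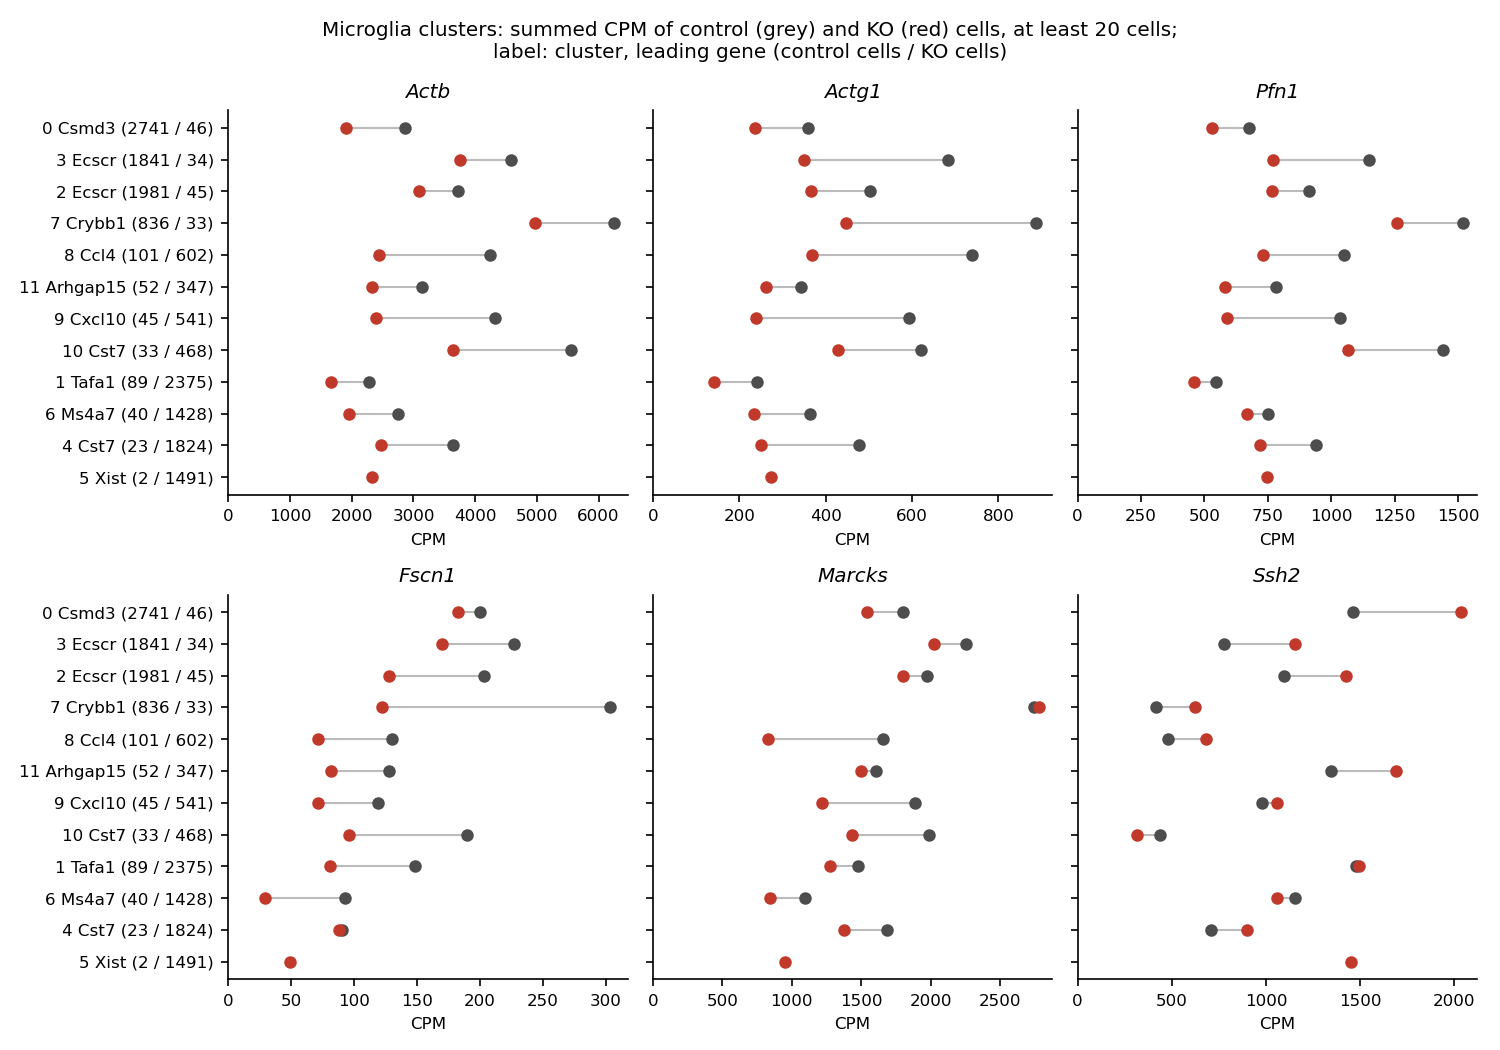
Level in CPM of Actb, Actg1, Pfn1, Fscn1, Marcks and Ssh2 in the pooled control cells (grey) and pooled KO cells (red) of each microglia cluster, shown where a genotype has at least 20 cells. Actb, Actg1, Pfn1 and Fscn1 are lower in KO cells in all 11 clusters that show both, Ssh2 is higher in 9.

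Across cell types, levels were taken per mouse with at least 5 cells of a type, and the order is a description of means with their SD over mice. Types other than microglia-like cells pool control and KO mice, so their order can differ within a genotype. T cell-like cells, for instance, had a mean of 6109 CPM of Actb in control and 3458 CPM in KO mice. Actb was highest in monocyte-like cells (7433 CPM, SD 937, 8 mice), followed by granulocyte-like (5768), T cell-like (4783), NK-like (4609), B cell-like (4328) and CAM-like cells (3892.5 CPM). Control microglia-like cells came after these (3616 CPM), then proliferating cells (3227 CPM), and KO microglia-like cells were at the end (2164 CPM). Neighbours in this order overlapped within their SDs, except that KO microglia-like cells lay clear of proliferating cells; B cell-like cells of single mice, down to 2140 CPM, reached into the KO microglia-like range.

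Actg1 ran likewise from 2186 CPM in monocyte-like cells down to 585 CPM in CAM-like cells, 491 CPM in control and 235 CPM in KO microglia-like cells, and again only the last stood clear of its neighbour. Pfn1 was highest in NK-like (3600 CPM) and monocyte-like cells (3508 CPM) and lowest in KO microglia-like cells (634 CPM), below control microglia-like cells by more than their SDs. Cfl1 began with B cell-like (1018 CPM) and monocyte-like cells (1009 CPM), which did not differ beyond their spread, and ended with control (462 CPM) and KO microglia-like cells (371 CPM). For these genes and Actb, microglia-like cells were thus at or near the lower end of the CD45+ cells.

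Tmsb4x peaked in monocyte-like cells (23036 CPM), above NK-like cells (18326 CPM) by more than their SDs although single mice overlapped, and was lowest in KO microglia-like cells (8870.4 CPM), which overlapped with B cell-like (9148 CPM) cells. Coro1a peaked in monocyte-like cells as well (1609.8 CPM), above T cell-like cells (833 CPM) in the same sense, and the low end, control microglia-like (281 CPM), CAM-like (220 CPM) and KO microglia-like cells (180.5 CPM), overlapped step by step. Eps8 had monocyte-like (110.1 CPM) and CAM-like cells (97.6 CPM) together at the top, clear of B cell-like cells (30.8 CPM), while proliferating cells had 19.9 CPM and control microglia-like cells 16.5 CPM.

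For the other 3 genes microglia-like cells led. Fscn1 stood at 206 CPM in control microglia-like cells, clear of KO microglia-like cells (70.9 CPM), which overlapped with proliferating cells (44.8 CPM), and it fell to 6.74 CPM in T cell-like cells. Marcks stood at 1963 CPM in control microglia-like cells, clear of KO microglia-like cells (1166 CPM), which overlapped with CAM-like cells (999 CPM), and reached 31.3 CPM in NK-like cells. Ssh2 overlapped between KO (1220.3 CPM) and control microglia-like cells (1155 CPM), the latter clear of CAM-like cells (758 CPM), with NK-like cells last (142 CPM).

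Free RNA in the droplets held all 10 genes. Barcodes with at most 100 UMIs in the pool had 4978 CPM of Actb, 15090 CPM of Tmsb4x, 137 CPM of Fscn1, 1162 CPM of Marcks and 7.59 CPM of Eps8. For 6 of the 10 genes the mean of control microglia-like cells was below free RNA, and for 8 that of KO microglia-like cells, all but Ssh2 and Marcks. The mean levels of Eps8 in KO microglia-like (5.70 CPM), NK-like (5.39 CPM) and T cell-like cells (5.97 CPM) were below its level in free RNA, those of NK-like and T cell-like cells resting on 1 and 2 UMIs in all. Among KO microglia-like cells, only those of KO-2 (8.99 CPM) were above it. Fscn1 in T cell-like cells, with 1 UMI, was a small part of its level in free RNA. Free RNA is a mixture over all mice, and its part in low levels was not tested.

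**Figure D4:**
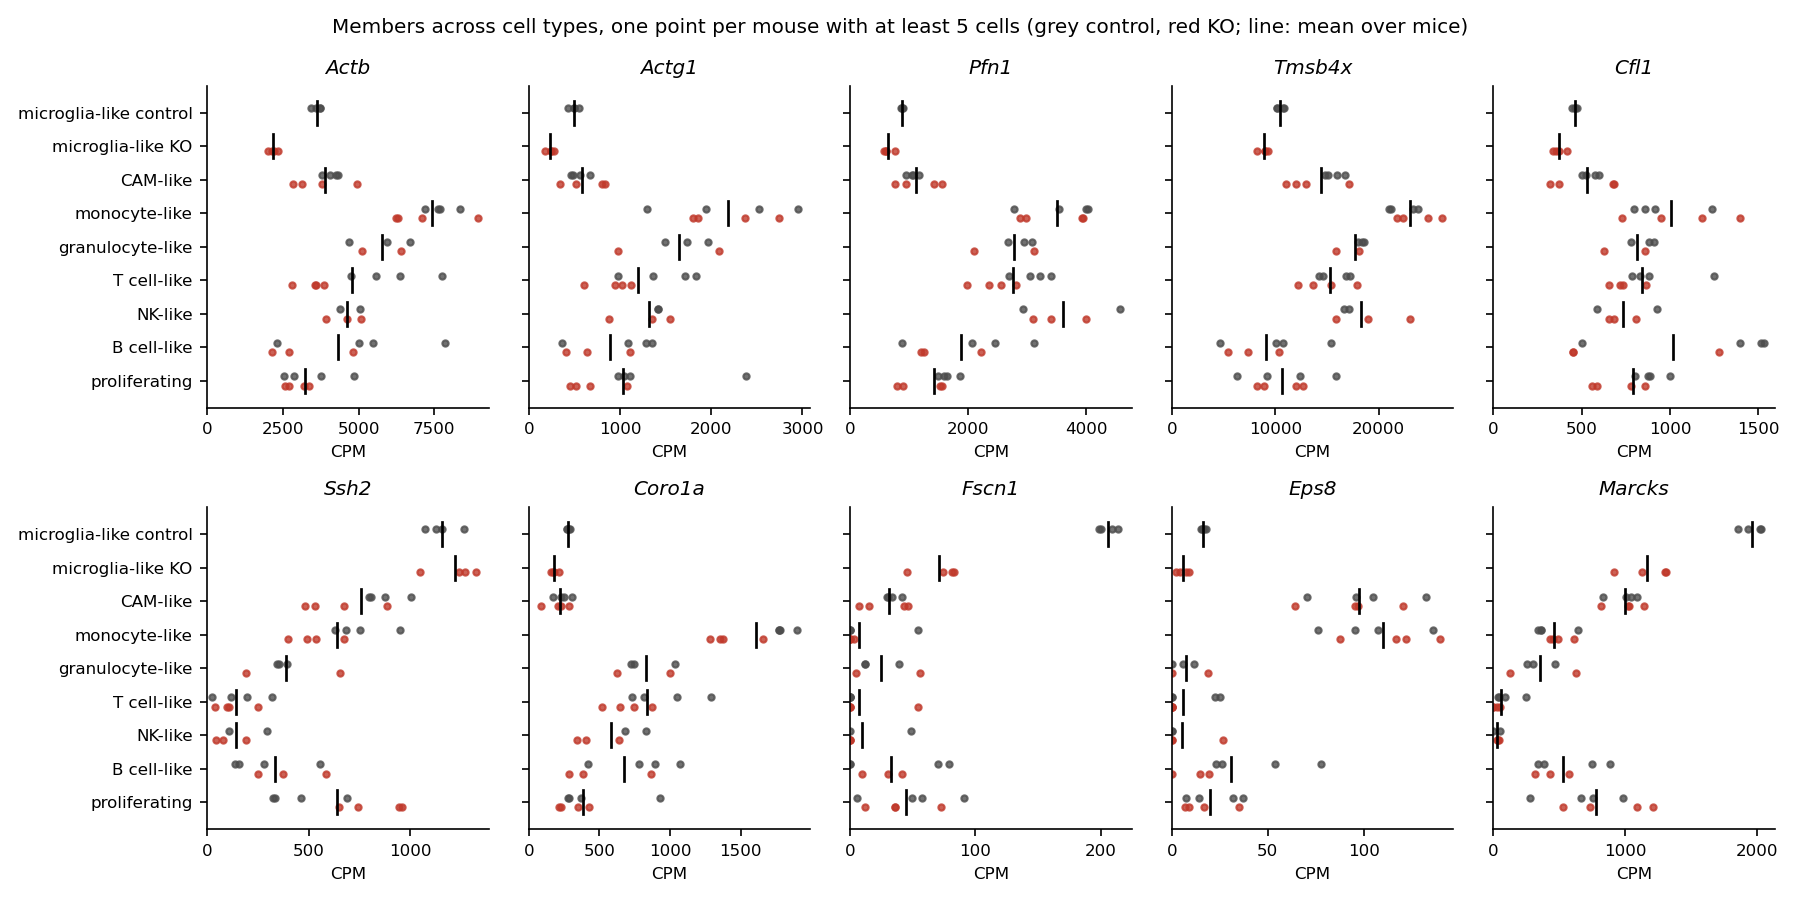
Level in CPM of the 10 genes by cell type, with 1 point for each control mouse (grey) and KO mouse (red) with at least 5 cells of the type, and the mean (line). Monocyte-like cells lead for Actb (7433 CPM) and Coro1a (1609.8 CPM), and microglia-like cells lead for Fscn1, Marcks and Ssh2.

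CAM-like cells were the other cell type tested (405 cells, 93546 to 439363 UMIs per mouse), and the Cx3cr1 promoter is active in them as well. Arpc4 there stood at 218, 155, 205 and 181 CPM in the controls and at 238.5, 203, 224 and 231 CPM in KO mice. The groups overlapped, 3 KO mice lay above all controls, and the log2 fold change was 0.27 (adjusted p = 0.708). Its deletion was thus not detectable in their 3′ counts, which held 19 to 90 Arpc4 UMIs per mouse.

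Of the 10 genes, 9 were tested in CAM-like cells, Fscn1 having too few UMIs, and 0 changed by edgeR, where 0.958% of all 3342 genes tested did. At an unadjusted p under 0.05 the edgeR count was 1 (Ssh2), where 10.7% of the 3342 genes passed, and by DESeq2 0 passed after adjustment. Actg1 measured 565, 486, 462 and 675 CPM in control CAM-like cells and 831, 513, 808 and 342 CPM in KO ones. The KO mice fell on both sides of the controls, and the log2 fold change was 0.25 (SE 0.257, adjusted p = 0.791).

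Ssh2 measured 804, 1005, 876 and 796.5 CPM in control CAM-like cells and 484, 887, 531 and 676 CPM in KO ones. In these cells 3 of 4 KO mice were below all controls and KO-2 was within the control range, with a log2 fold change of -0.44 (SE 0.204, adjusted p = 0.4495). Actb had -0.13 (SE 0.210, adjusted p = 0.871), Eps8 -0.01 and Marcks 0.03. Control and KO values overlapped for all 10 genes in CAM-like cells; they did not for 6.14% of 3341 tested genes, 3.35% lower and 2.78% higher.

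The difference of the genotype effect between microglia-like and CAM-like cells was tested as an interaction in edgeR. It passed for 2 of the 10 genes, Actg1 lower and Ssh2 higher in microglia-like cells; of 11094 genes tested 4.97% passed, 0.694% lower and 4.27% higher. Many of these, Fscn1 included, had too few UMIs for a test in CAM-like cells alone. Of the 9 genes tested there as well the same 2 passed, against 11.5% of 3342 such genes, 1.53% lower and 10.0% higher. For Actg1 the log2 fold change in microglia-like minus that in CAM-like cells was -1.10 (SE 0.293, adjusted p = 0.0278), and for Ssh2 it was 0.76 (SE 0.191, adjusted p = 0.0181). Arpc4 differed as well (-0.77, SE 0.179, adjusted p = 0.0110). At an unadjusted p under 0.05 the count was 4, where 17.0% of the 11094 genes passed, adding Eps8 (-1.32, adjusted p = 0.143) and Marcks (-0.55, adjusted p = 0.120).

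Both differences passed without KO-1 (Actg1 -0.98, adjusted p = 0.0266; Ssh2 0.65, adjusted p = 0.0416), but the calls were lost without other single mice. Actg1 no longer passed without KO-3 (-0.83, adjusted p = 0.136), Ctrl-1 (-1.12, 0.0838), Ctrl-2 (-1.16, 0.0583), Ctrl-3 (-1.03, 0.114) or Ctrl-4 (-1.16, 0.0608), and its adjusted p ran from 4.2e-05 to 0.136 over 10 alternatives. Ssh2 no longer passed without KO-3 (0.68, adjusted p = 0.0726), Ctrl-1 (0.78, 0.0644), Ctrl-2 (0.68, 0.0926) or Ctrl-3 (0.71, 0.0942), nor with total count scaling (0.54, 0.162), within a range of 0.0100 to 0.162. With each mouse as a block, which pairs both cell types of a mouse, Eps8 passed too (-1.41, adjusted p = 0.00637), making 3 of the 10 where 6.12% of 11815 genes passed, 0.990% lower and 5.13% higher. Eps8 also passed without KO-2 (adjusted p = 0.0330; range 0.00637 to 0.339). Marcks passed with total count scaling (adjusted p = 0.0197; range 0.0197 to 0.295).

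**Figure D5:**
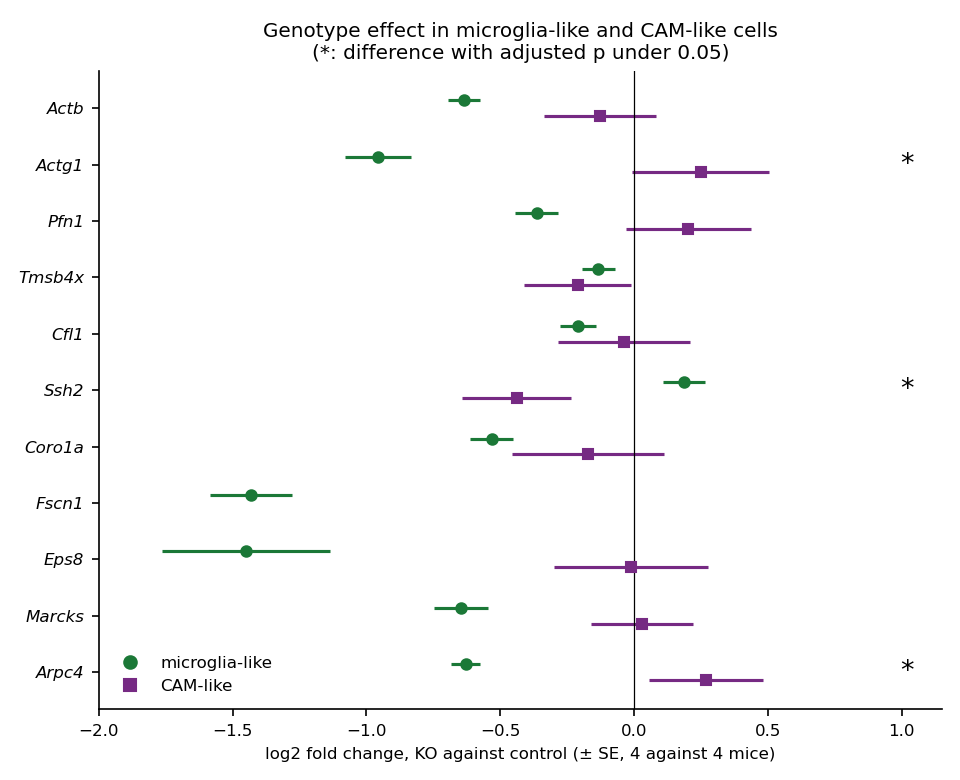
Log2 fold change of KO over control (points) with its SE (lines) in microglia-like cells for the 10 genes and Arpc4 and in CAM-like cells for the same without Fscn1, an asterisk marking an adjusted p under 0.05 for the difference between both cell types. Asterisks stand at Actg1 (-0.96 and 0.25), Ssh2 (0.18 and -0.44) and Arpc4 (-0.63 and 0.27).

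Monocyte-like, T cell-like, NK-like, B cell-like and granulocyte-like cells were too few in too many mice for a test. Proliferating cells, grouped by cell cycle genes whatever their type, had enough cells in 3 control and 4 KO mice but were not tested. T cell-like cells had 7745, 4736, 6386 and 5569 CPM of Actb in the controls and 3571, 2806, 3848.5 and 3605 CPM in KO mice, from 6 to 32 cells per mouse. The groups did not overlap, with Ctrl-1 highest and KO-2 lowest. In monocyte-like cells, Coro1a did not overlap either, at 1768 to 1901 CPM in control and 1279.9 to 1657 CPM in KO mice. These pairs were singled out after their values were seen: over monocyte-like, T cell-like, B cell-like and proliferating cells, those with at least 3 mice of 5 or more cells in each genotype, 37 of 40 pairs of gene and type overlapped, the remaining one being Eps8 in B cell-like cells. The share of all genes without overlap was not counted in these types, so these pairs are not shown to stand out. None of these differences was tested.

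Over 31 sums of named cell types, without proliferating cells, and mice with at least 10 cells, each gene's level was correlated with that of 3525 genes (Pearson's r of log2 CPM, a description, since the sums share mice and 1 library). The compared genes had to reach a mean of 50 CPM, which Fscn1 (46.8 CPM) and Eps8 (47.7 CPM) did not. Most like Actb were Actg1 (0.917), Pfn1 (0.869) and Cfl1 (0.859), and Actg1 was most like Pfn1 (0.941). Pfn1 was most like Cnn2 (0.952) and Mrpl33 (0.947), Tmsb4x like the Arp2/3 subunit gene Arpc2 (0.900), and Cfl1 like Ppp1ca (0.913). Coro1a went with Myl12b (0.941), Cdk2ap2 (0.929) and Fam107b (0.924). Eps8 went with Ftl1 (0.874), Clec4a1 (0.865) and Pltp (0.864).

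The 3 genes led by microglia-like cells were set apart from the actins in this comparison. Fscn1 was most like Siglech (0.953), a microglia gene, and Epb41l2 (0.948), and its correlation with Pfn1 was -0.83. Marcks was most like Grn (0.953), Pld4 (0.924) and Unc93b1 (0.919), and Ssh2 like Atp6v0b (0.935), Gab2 (0.934) and Slc8a1 (0.934).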

How the data were processed

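Single-cell RNA of CD45+ brain cells from 4 control and 4 Arpc4ΔCx3cr1 mice was re-analysed. The deposited matrices hold raw UMI counts per gene and cell, made by the authors with Cell Ranger (7.1.0 per the file headers, 6.1.2 in the submitters' notes) on mm10, with cells assigned to mice by tag. The other deposited columns hold names, which are other than measurements. Whether intron reads were counted is not given. The 10 genes and all gene lists were chosen with earlier results of these data known.

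Cells with under 200 genes, over 20% mitochondrial or over 1% hemoglobin UMIs were left out (6 of 19864). Seurat 5.3.0 clustered cells (10000 variable genes without the 10 genes, 20 components, 20 neighbours, resolution 0.8). Clusters were named where at least 3 markers led by a log2 margin of 1, limits set after the clusters were seen. The lead was over all other cells. For microglia-like clusters it was instead over the lymphoid and granulocyte clusters, with no other class leading by more markers. Left out of types were 297 unnamed cells and 1510 unnamed cells with few UMIs. Tags remove doublets between mice; those within a mouse were not called, but 144 cells with microglia and T cell markers were left unnamed. Counts were summed per type and mouse. Types with at least 10 cells in 3 mice per genotype were tested, proliferating cells, which are no single type, being left out: edgeR 4.0.16 quasi-likelihood, TMM, filterByExpr, Benjamini-Hochberg over all genes at 0.05, R 4.3.3. Depth was 5251527 to 12878691 UMIs per mouse, and a gene at 25 UMIs in a mouse carries a large counting error.

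Named list genes are those passing with the largest change, at most 3 per list and direction, and fixed partners of the 10 genes. Alternatives were DESeq2 1.42.0, total scaling, no filter (every gene with any UMI kept), a replicate block, and each mouse left out. Further ones were low-UMI clusters added, 500 genes and 10% mitochondrial limits, and 10% ambient RNA subtracted. Chosen after seeing the data were hemoglobin-rich cells added and cells of 3000 to 5000 UMIs alone. Gene positions are of GENCODE vM21, promoters of RefSeq. The tests were tested on simulated data. Monocyte-like, T cell-like, NK-like, B cell-like and granulocyte-like cells were too few to test.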

Additional observations from a re-analysis of the deposited data

Results flagged for a closer look

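The effect of the genotype differed between microglia-like and CAM-like cells, by an interaction test in edgeR, for 2 of the 10 genes and for Arpc4, where 4.97% of 11094 genes passed, or 11.5% of the 3342 also tested in CAM-like cells. With each mouse as a block 3 of the 10 passed, Eps8 being added (-1.41, adjusted p = 0.00637), where 6.12% of 11815 genes did. For Actg1 the difference of the log2 fold changes, microglia-like minus CAM-like, was -1.10 (adjusted p = 0.0278, not passing without KO-3, where it was -0.83, or without any 1 of the control mice, where it was -1.16 to -1.03). For Ssh2 it was 0.76 (adjusted p = 0.0181, not passing without KO-3, Ctrl-1, Ctrl-2 or Ctrl-3, where it was 0.68 to 0.78, or with total count scaling, where it was 0.54). For Arpc4 it was -0.77 (adjusted p = 0.0110), passing in all 10 alternatives run. CAM-like cells gave 22 to 111 cells per mouse. Of 44 groups of 4 mice examined for 1 value far from the others, 0 held one.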

How the results depend on the processing

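Of 170 fold changes of the 10 genes in microglia-like cells under alternatives, 161 kept their direction and their side of the threshold and 0 reversed. The exceptions were 6 for Cfl1, each with 1 mouse left out, and, now passing, Tmsb4x with total count scaling and Ssh2 without KO-4 and in cells of 3000 to 5000 UMIs. In that last set, chosen after seeing the data, 5 dissociation genes passed against 9, with 9 tested against 13, which leaves fewer genes to pass. With 1 mouse left out, 0 to 3 of the 10 genes differed in effect between microglia-like and CAM-like cells, against 2; the cause was not tested. The shares of cells with a UMI passed for 9 of the 10 genes, and for 6 to 9 with 1 mouse left out. The control and KO numbers pair no animals (same-number r of -0.0732 to -0.0142). With them as a block 8 of the 10 genes passed, where 5521 of all 12728 genes did, 2772 lower and 2749 higher. Alternatives for types too small to test were not run. CAM-like sums, with 1 to 18 Fscn1 UMIs, were too shallow for that gene.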
